A study of Mus musculus with 16 samples.

Results

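The genes described here are 10 mouse genes of cell cycle arrest and of the p53 response: the cyclin-dependent kinase inhibitors Cdkn1a, Cdkn1b, Cdkn2a and Cdkn2b, the transcription factor gene Trp53 with its regulator Mdm2, and the p53 target genes Ccng1, Phlda3, Bax and Sesn2. They were chosen by name, as the rows of the expression tables whose mouse Ensembl identifier maps to these symbols, and all 10 were found among 57005 gene rows. The study measured RNA by bulk sequencing in C57BL/6 mice of a control genotype and of a genotype that the labels call GRK2 eKO, an abbreviation they do not spell out, written here as eKO. Whole back skin of animals aged 8 months gave 5 control and 5 eKO libraries. Hair follicle stem cells (HFSC), sorted as bulge cells positive for CD34 and α6-integrin, gave 3 control and 3 eKO libraries, which the labels place at 18 months and the design text at 8 months, so their age is not settled here. The labels do not name the allele, the promoter of a deleting transgene or the sex of the animals, and they do not say that the libraries of a group come from separate animals, so the p-values measure the spread between these libraries.

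The protein p53, product of Trp53, is a transcription factor that is held at a low level by the ubiquitin ligase Mdm2 and is stabilised by DNA damage and other stress, after which it raises genes of arrest, repair and cell death, Mdm2 itself among them. The inhibitors p21 (Cdkn1a) and p27 (Cdkn1b) block cyclin-dependent kinases, whereas the Ink4 proteins p16 (Cdkn2a) and p15 (Cdkn2b) block the kinases that act with D cyclins. In the hair follicle, bulge stem cells rest for most of the hair cycle, and Ink4 genes are widely used as markers of senescence in ageing skin.

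Values are the authors' normalised read counts unless reads or a length-scaled level are named. The depth was 11.6 to 14.2 M gene reads per control skin library (M is the SI prefix mega), 8.21 to 16.4 M in eKO skin, 6.43 to 6.73 M in control HFSC and 6.43 to 9.39 M in eKO HFSC. Grk2 itself was at 1298 ± 144 in control and 1110.45 ± 93.8 in eKO skin (SD, n = 5 each), and at 135 ± 12.0 and 114 ± 8.68 in HFSC (SD, n = 3 each), with limma adjusted p of 0.343 and 0.501, so this gene did not pass in either tissue. The 2 HFSC genotypes also differed in markers of other cells. The summed value of 10 endothelial markers was 54.9 to 70.5 in control and 1191 to 1357 in eKO HFSC, with Vwf and Emcn at 0 in every control library, Egfl7 at 0 in every eKO library and Cldn5 at 0 in all 6 libraries. The sum of 11 markers of differentiated epidermis was 2662 to 4491 against 16799 to 17569.5, and that of 12 sebaceous markers 3654 to 3875 against 13323 to 14151. Of the 8 epidermal markers tested, 5 rose and Flg2 fell (log2 fold change -4.85), from 141 ± 36.3 to 7.34 ± 8.52 (SD, n = 3 each). The sum of 13 hair matrix and shaft markers was 743 to 867 against 2557 to 2774, that of 10 stressed keratinocyte markers 4293 to 4616 against 10032 to 10237, and that of 7 melanocyte markers 1888 to 2284 against 641 to 956. Of the 5 melanocyte markers tested, only Mitf passed, at 1839 ± 213 in control and 642 ± 173 in eKO libraries (SD, n = 3 each). The median log2 fold change of those 5 was -0.10. The sum of 12 leukocyte markers was 389.9 to 431 against 1549 to 2439. Of the 8 leukocyte markers tested, Cd74 and the MHC class II genes H2-Aa, H2-Ab1 and H2-Eb1 rose and Lyz2 fell (log2 fold change -2.50), while Tyrobp was at 0 in every eKO library. The sum of 4 Y-linked genes, which are not markers of a cell type, was 2339.6 to 2476 against 704 to 831, and all 4 were called lower. The labels give neither the sex nor any pooling of animals. A difference in sex makeup therefore cannot be told apart from genotype in any HFSC comparison. The sum of 12 bulge markers was 196067 to 202250.00 against 172809 to 193360.00. Of these, Lgr5 fell (log2 fold change -0.94, limma adjusted p 2.85e-06). Itga6, the gene of α6-integrin, rose (log2 fold change 0.58, limma adjusted p 5.1e-04), and no other of the 12 passed. How far these differences enter the HFSC results below was not tested, and in bulk libraries fewer cells of a type and less RNA per cell cannot be told apart. In skin, 2 libraries, control 5 and eKO 3, had Y-linked sums of 1.9 and 0.6, where the highest library of each group was at 2762 and 2705.5.

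To show what lies before the start of the genes whose level changed in HFSC, the 250 bases before the annotated start of Cdkn1a (the upstream one of 2 starts, chr17:29090729-29090978, plus strand), Phlda3 (chr1:135765835-135766084, plus strand) and Mdm2 (chr10:117710759-117711008, minus strand) are given from RefSeq on GRCm38.p6, 5′ to 3′ on the strand of the gene. Capitals mark matches to the p53 half-site consensus and to GGGCGG, a core of GC boxes, on either strand.
Cdkn1a: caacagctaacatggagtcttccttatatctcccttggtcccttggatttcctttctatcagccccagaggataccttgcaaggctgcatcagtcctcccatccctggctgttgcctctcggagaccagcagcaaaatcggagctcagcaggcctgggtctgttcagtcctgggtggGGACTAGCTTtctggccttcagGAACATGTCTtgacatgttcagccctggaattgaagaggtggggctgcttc
Phlda3: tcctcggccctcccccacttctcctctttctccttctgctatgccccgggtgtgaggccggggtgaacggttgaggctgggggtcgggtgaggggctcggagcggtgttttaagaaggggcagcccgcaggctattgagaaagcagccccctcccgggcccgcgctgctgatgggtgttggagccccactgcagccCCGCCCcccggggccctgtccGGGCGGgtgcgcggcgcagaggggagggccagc
Mdm2: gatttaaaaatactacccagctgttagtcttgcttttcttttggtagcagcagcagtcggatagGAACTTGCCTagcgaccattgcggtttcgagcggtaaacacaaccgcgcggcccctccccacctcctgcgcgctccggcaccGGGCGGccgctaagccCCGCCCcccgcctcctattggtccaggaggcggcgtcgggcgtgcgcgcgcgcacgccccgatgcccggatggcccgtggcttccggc
The Cdkn1a window holds half-site matches that begin 73 and 51 bases before the start, with 12 bases between them, and the Mdm2 window holds 1 that begins 186 bases before it. Only full matches are marked. The bases tgacatgttc, which directly follow the second Cdkn1a match, miss the consensus at their first base alone. Windows reaching from 250 bases before to 50 bases after a start were searched for all 10 genes, 12 windows in all. A half-site match was present in 5 windows, against 8.36% of the 32851 windows of the genome table. These were the windows of Mdm2, Bax, Ccng1, Trp53 and the upstream start of Cdkn1a. The Phlda3 window ends in gaacatgt, which follows the consensus up to the window edge, so a match there could not be scored. The window of the downstream start of Cdkn1a holds no half-site match and 2 GGGCGG matches. GGGCGG was present in 9 windows of 8 genes, against 35.7% of all windows. No half-site match overlapped a GGGCGG match. The matches are letters in the sequence, and binding was not measured. The 2 annotated starts of Cdkn1a lie 2790 bases apart and those of Cdkn2a, which serve p16Ink4a and p19Arf, 12427 bases apart, and values per gene cannot separate the transcripts.

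In HFSC, Cdkn1a and Phlda3 rose and Mdm2 fell in eKO libraries. Of the 10 genes, 8 passed the filter on low values and were tested. The filter required a value of at least 10 in at least 3 of the 6 libraries, the test was limma on log2(value + 1), and the call was an adjusted p under 0.05 over all genes tested. The test called 2 of the 8 higher, where 10.7% of 13784 tested genes were called higher, and 1 of the 8 lower, where 8.74% were. The median log2 fold change of the 8 genes was 0.41, against -0.03 over all genes tested. The libraries of the genotypes did not overlap for 4 of the 8, Cdkn1a, Phlda3, Mdm2 and Sesn2, against 36.3% of all genes tested.

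**Figure D1:**
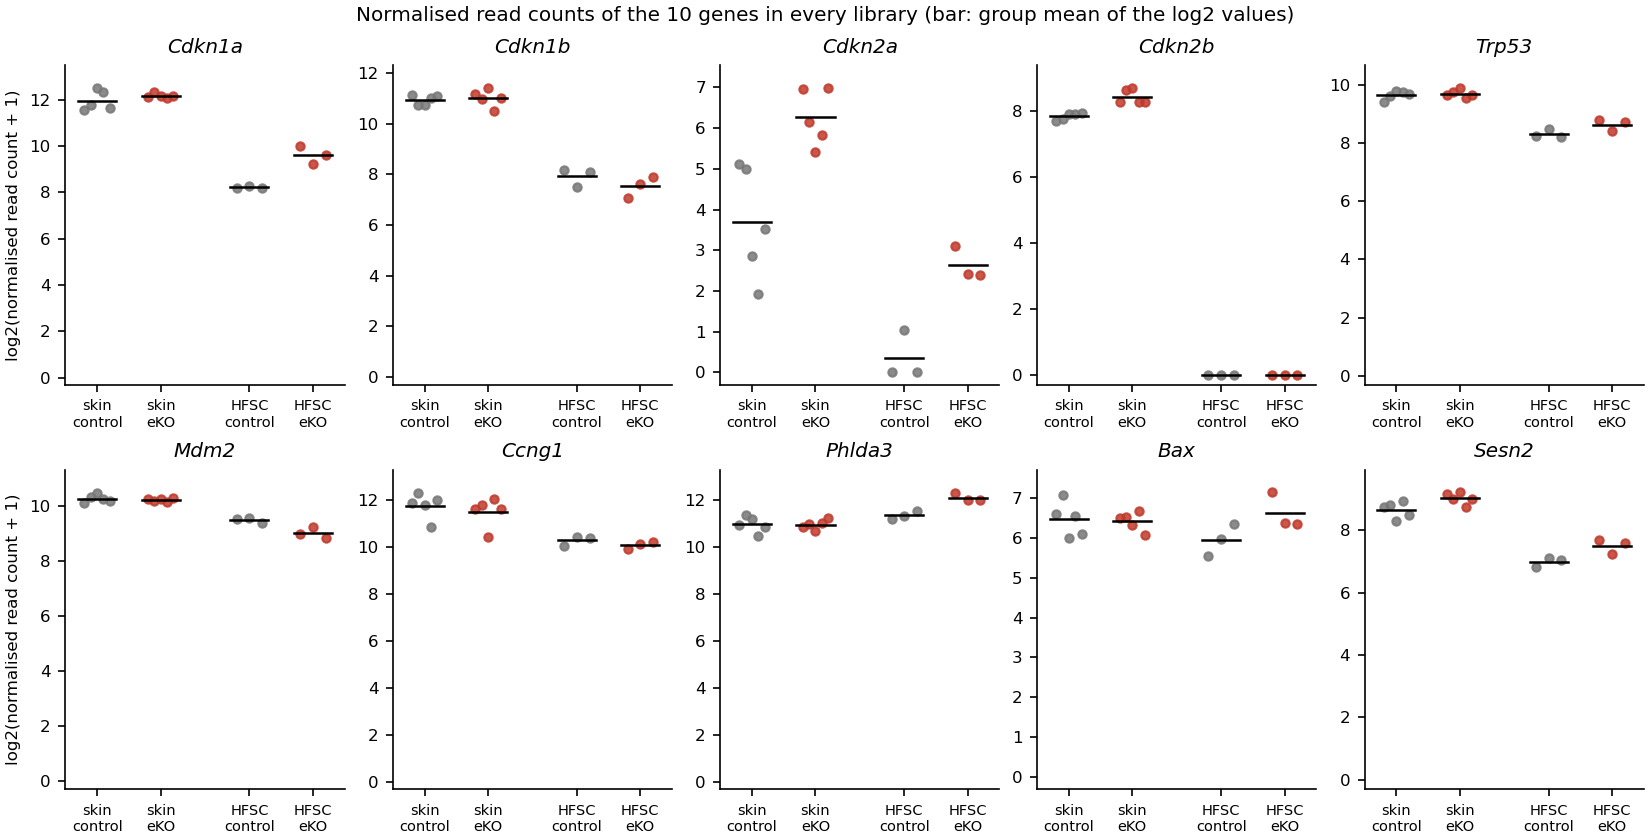
Normalised read counts of the 10 genes on the log2(value + 1) scale, with 1 point per library and a bar at the group mean, for control (grey) and eKO (red) libraries of skin (5 each) and HFSC (3 each). The HFSC points of Cdkn1a and Phlda3 are all higher in eKO, those of Mdm2 all lower, and Cdkn2b is at 0 in all 6 HFSC libraries.

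Cdkn1a, the gene of the kinase inhibitor p21, was at 294, 305 and 291 in the control HFSC libraries and at 1012, 602 and 784 in the eKO libraries. The highest control library was 1.05 times the lowest, and the lowest eKO library was well above them. The log2 fold change was 1.39 (SE 0.18, 95% interval 1.01 to 1.78) with a limma adjusted p of 1.52e-04, a 2.63-fold rise (95% interval 2.02 to 3.43). It passed the threshold under each of 14 other settings, with log2 fold changes of 1.21 to 1.58. An unnamed gene model, AC167363.2, overlaps Cdkn1a on the opposite strand, and whether the counting used strand is not given in the sources used here.

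Phlda3 encodes a pleckstrin-homology protein that p53 induces and that restrains the kinase Akt at the membrane. It was at 2329, 2556 and 2982 in control and at 5091, 4046 and 4121 in eKO HFSC, again with every eKO library above every control library. The fitted log2 change was 0.75 (SE 0.11, 95% interval 0.51 to 1.00) with a limma adjusted p of 5.34e-04, a 1.68-fold rise, and it passed under each of the 14 other settings.

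Mdm2, the gene of the ubiquitin ligase of p53 and itself a p53 target, went the other way. It was at 742, 747 and 659 in control and at 501, 599.6 and 449.5 in eKO HFSC, and the groups did not overlap. On the log2 scale the change was -0.48 (SE 0.14, 95% interval -0.78 to -0.17) with a limma adjusted p of 0.0312, a fold of 0.718. The call was lost when control 1, control 2, control 3, eKO 1 or eKO 3 was left out, with limma adjusted p of 0.123, 0.128, 0.0574, 0.0523 and 0.0977, and the log2 fold change over the 6 omissions was -0.59 to -0.38.

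Trp53 did not pass the test in HFSC. Its values were 303, 354 and 296 in control and 439, 339.8 and 416 in eKO libraries, and eKO 2 lay below control 2. The log2 fold change was 0.32 (SE 0.16, 95% interval -0.03 to 0.67) with a limma adjusted p of 0.194. Sesn2, a stress-induced inhibitor of growth signalling through mTORC1, was at 113, 137 and 129.97 in control and 203, 149 and 191 in eKO libraries. Its groups did not overlap, and the log2 fold change of 0.51 (SE 0.22, 95% interval 0.03 to 0.99) with a limma adjusted p of 0.132 missed the threshold.

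Bax, which opens the outer mitochondrial membrane in apoptosis, was at 45.9, 62.1 and 80.0 in control and 140.3, 82.2 and 79.9 in eKO HFSC. The eKO 1 library was high and the other two lay near control 3. Its fitted log2 fold change was 0.66 (SE 0.34, 95% interval -0.06 to 1.39) with a limma adjusted p of 0.192. In the GENCODE annotation Bax shares exon bases with the gene model Gm45808 on the same strand, and how reads in shared bases were counted is not given in the sources used here. Ccng1, the gene of cyclin G1, was at 1044, 1383 and 1338 in control and 976, 1117 and 1204 in eKO libraries, which overlapped. For Ccng1 the log2 fold change was -0.19 (SE 0.13, 95% interval -0.47 to 0.10) with a limma adjusted p of 0.354. Cdkn1b, the gene of p27, was at 289, 183 and 274 in control and 133, 197 and 236 in eKO libraries, also overlapping, with a log2 fold change of -0.41 (SE 0.25, 95% interval -0.95 to 0.14) with a limma adjusted p of 0.287.

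Cdkn2a and Cdkn2b were barely detected in HFSC. Cdkn2a had 0, 1 and 0 recovered reads in the control libraries and 10, 4 and 4 in the eKO libraries, and it did not pass the filter. Against a floor of 3 reads per control library, the eKO mean of 5.41 was 1.77-fold higher. This ratio is not a lower bound, as the floor leaves out counting error in the eKO libraries and the spread between libraries. Cdkn2b was listed at 0 in all 6 HFSC libraries, although it was counted in every skin library. Genes of the pathway lists such as Bak1, Bcl2l2, Txnip and Timp1 were listed at 0 in all 16 libraries, so a 0 is reported here only as listed.

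In skin, none of the 10 genes passed the test, and the 2 whose groups did not overlap were the neighbouring genes Cdkn2a and Cdkn2b. All 10 were tested with 0 called, where 0.229% of 16589 genes were called higher and 0.145% lower by limma. At an unadjusted p under 0.05 there were 3 of the 10, Cdkn2a, Cdkn2b and Sesn2, against 14.2% of all genes. DESeq2 on the recovered reads, which called 656 genes in skin where limma called 62 and edgeR 54, called Cdkn2a and Cdkn2b, and edgeR called neither. The groups did not overlap for 2 of the 10, against 4.18% of all genes, and the median log2 fold change was 0.05, against 0.00 over all genes tested.

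Cdkn2a was at 34.1, 31.2, 6.27, 2.80 and 10.5 in control skin and at 124, 69.7, 41.7, 56.2 and 126 in eKO skin. Every eKO library was above every control library, while the control libraries themselves ranged 12.2-fold. The log2 fold change was 2.58 (SE 0.62, 95% interval 1.22 to 3.94) with a limma adjusted p of 0.107, or 4.92 as the ratio of the group means. With DESeq2 it was 2.29 with an adjusted p of 0.00713, and with the level of hair matrix and shaft genes as a covariate 2.52 with a limma adjusted p of 0.00835. Without the 2 libraries with Y-linked genes near 0 it was 2.75, with a limma adjusted p of 0.253.

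Cdkn2b was at 206, 216, 242, 242 and 246 in control skin and at 306, 402, 414, 307 and 307 in eKO skin. The control libraries were tightly grouped and lay below every eKO library. The log2 fold change was 0.58 (SE 0.12, 95% interval 0.31 to 0.85) with a limma adjusted p of 0.0741, and the ratio of the means was 1.51. The DESeq2 value was 0.59 with an adjusted p of 0.00146, the hair covariate gave 0.59 with a limma adjusted p of 0.0433, and omitting the 2 Y-low libraries gave 0.54 with a limma adjusted p of 0.236.

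**Figure D2:**
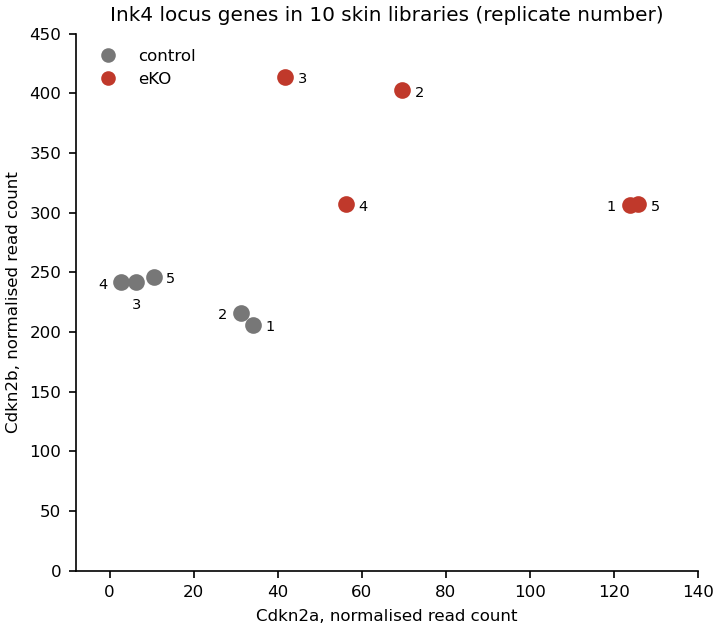
Normalised read counts of Cdkn2a (horizontal) and Cdkn2b (vertical) in the 10 skin libraries, with control in grey, eKO in red and the replicate number beside each point. The eKO libraries lie above 300 for Cdkn2b and above 40 for Cdkn2a, outside the range of the controls, and within neither genotype do the libraries highest in one gene lead in the other.

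Marker sums of other cells are given beside the Cdkn2a and Cdkn2b values. The summed value of 10 stressed keratinocyte markers was 10108 to 27304 in control and 19272 to 51541 in eKO skin, that of 12 leukocyte markers 7425 to 19993 against 14226 to 22409, and that of 12 sebaceous markers 22027 to 78419 against 63845 to 102761. These ranges of sums overlapped. Of 9 stressed keratinocyte markers tested in skin, 9 had a positive log2 fold change, with a median of 2.00. In this list 5 were at an unadjusted limma p under 0.05, against 14.2% of all genes. Limma and edgeR called none of the 9, and DESeq2 called Krt17 and Krt6a higher. Of 11 leukocyte markers tested 2 were under that p, and DESeq2 called Cd52 higher. Of 10 differentiated epidermis markers 4 were, and DESeq2 called Casp14 and Klk7 higher. Among 12 sebaceous markers tested, Krt79, Cidea and Far2 were called higher by limma, and 10 were at an unadjusted p under 0.05. The same 3 were called by edgeR, and DESeq2 called 6. By limma no sebaceous marker was called without control 2, eKO 1, eKO 3 or eKO 5, or without the 2 Y-low libraries. Krt79 was at 4626 to 9142 in control and 13422 to 26802 in eKO skin. The part of these markers in the Cdkn2a and Cdkn2b values was not tested. Among 13432 genes with a mean of at least 50, those whose log2 values followed Cdkn2a most closely over the 10 skin libraries were Lipa, a lysosomal lipase (Pearson r 0.982), Cybb, a subunit of the phagocyte oxidase (r 0.968), and Nfasc (r 0.967). For Cdkn2b the closest was Arpc5 (r 0.919). These r values describe libraries that differ in genotype and cell makeup.

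The p21 and p27 genes did not pass the test in skin. Cdkn1a was at 2981, 3454, 5756, 5227 and 3228 in control and 4483, 5221, 4651, 4289 and 4592 in eKO skin. The eKO libraries all lay inside the wide control range, and the log2 fold change was 0.22 (SE 0.18, 95% interval -0.19 to 0.63) with a limma adjusted p of 0.639. Cdkn1b was at 2258, 1712, 1732, 2062 and 2173 in control and 2304, 2036, 2698, 1444 and 2077 in eKO skin. It was lowest in eKO 4 and highest in eKO 3, and the log2 fold change was 0.07 (SE 0.16, 95% interval -0.28 to 0.42) with a limma adjusted p of 0.882.

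For the p53 axis, Trp53 was at 682, 788, 891, 870.03 and 818 in control and 795, 858, 941, 755 and 799.96 in eKO skin. The groups overlapped, and the log2 fold change was 0.04 (SE 0.10, 95% interval -0.18 to 0.25) with a limma adjusted p of 0.894. Mdm2 was at 1095, 1279, 1431, 1216 and 1161 in control and 1213, 1155, 1208, 1125 and 1243 in eKO skin, with all eKO libraries inside the control range and a log2 fold change of -0.05 (SE 0.09, 95% interval -0.24 to 0.14) with a limma adjusted p of 0.826. These 2 genes varied little, with the highest control library 1.31 times the lowest for each.

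Of the targets, Sesn2 was at 428, 451, 312, 486 and 356 in control and 566, 515, 592, 429.7 and 515 in eKO skin. Only eKO 4 lay within the control range, and the log2 fold change was 0.37 (SE 0.14, 95% interval 0.07 to 0.68) with a limma adjusted p of 0.252. Phlda3 was at 1961, 2619, 2349, 1399 and 1872 in control and 1832, 2023, 1659, 2059 and 2412 in eKO skin, with a log2 fold change of -0.01 (SE 0.17, 95% interval -0.38 to 0.36) with a limma adjusted p of 0.986. Bax was at 96.5, 135, 62.7, 92.4 and 67.5 in control and 89.1, 90.3, 79.0, 100.2 and 65.8 in eKO skin, with a log2 fold change of -0.06 (SE 0.22, 95% interval -0.54 to 0.43) with a limma adjusted p of 0.933. For both genes the eKO libraries lay inside the control range.

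Ccng1 was the most variable of the abundant genes in skin, at 3705, 5097, 3500.4, 1855 and 4141 in control and 3165, 3583, 1362, 4174 and 3176 in eKO libraries. Control 4 and eKO 3 were lowest, and these 2 libraries also had the lowest summed value of 10 skeletal muscle markers in their groups, 46209 and 21770.1, where the highest library of each group was at 143230.00 and 131049. Between genotypes the log2 fold change was -0.26 (SE 0.33, 95% interval -0.99 to 0.46) with a limma adjusted p of 0.768. The genes closest to Ccng1 over the 10 libraries were Tmem233 (Pearson r 0.985), Sh3bgr (r 0.982) and Jph2 (r 0.982), of which Jph2 encodes a junctional membrane protein of striated muscle.

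**Figure D3:**
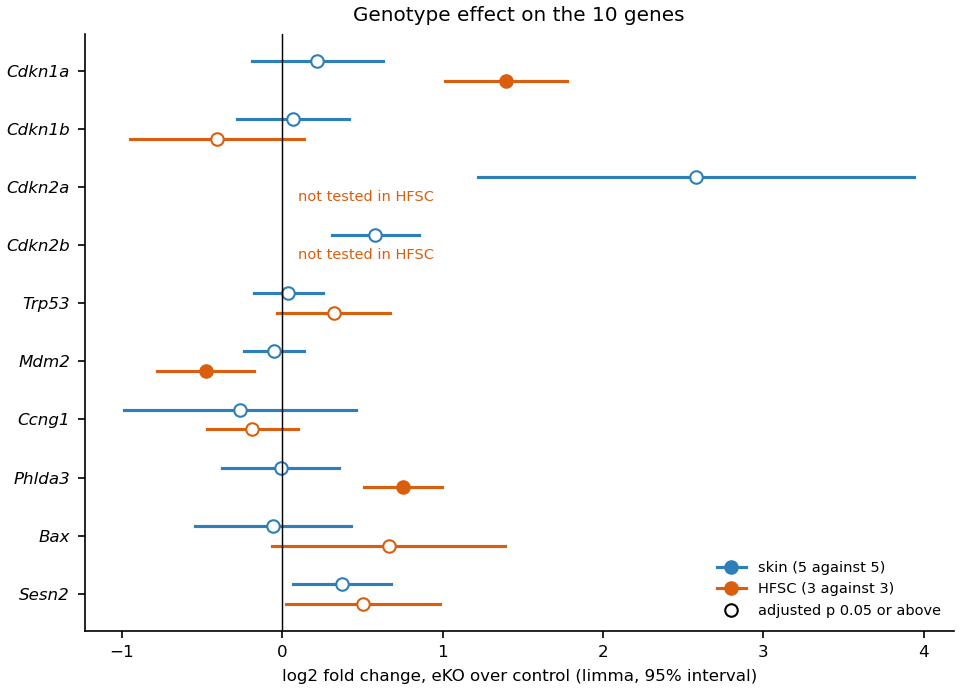
Log2 fold change of eKO over control with its 95% interval from limma for the 10 genes in skin (blue) and HFSC (orange), with filled points where the adjusted p is under 0.05. Cdkn1a, Phlda3 and Mdm2 are filled in HFSC, no gene is filled in skin, and the largest skin value is that of Cdkn2a at 2.58.

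Whether the genotype effect differed between HFSC and skin was tested as an interaction in 1 limma fit on the genes tested in both tables. Of the 8 genes tested, 1 passed, Cdkn1a, where 5.62% of 13227 genes passed in either direction. The HFSC effect on Cdkn1a exceeded the skin effect by 1.17 (SE 0.28, 95% interval 0.58 to 1.77) with a limma adjusted p of 0.0209 on the log2 scale. The call was lost without HFSC control 1 (limma adjusted p of 0.0534) or HFSC eKO 1 (limma adjusted p of 0.0584). For Phlda3 the difference was 0.76 (SE 0.24, 95% interval 0.24 to 1.28) with a limma adjusted p of 0.0799, and DESeq2 gave an adjusted p of 0.0279. For Mdm2 it was -0.43 (SE 0.15, 95% interval -0.75 to -0.10) with a limma adjusted p of 0.112. Tissue, age as labelled, library preparation and sort differ together between the tables and cannot be told apart in this contrast.

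The levels of the genes were also set beside each other per length, as recovered reads per kilobase of exon and per M gene reads (RPKM), with the range over libraries; this ordering carries no test across tissues. In control HFSC, Phlda3 led at 249.9 (223 to 284), followed by Ccng1 at 53.1 (44.4 to 58.2) and Mdm2 at 20.9 (19.3 to 21.8). Cdkn1a at 12.4 (12.2 to 12.7) and Trp53 at 11.7 (10.9 to 13.0) came next and overlapped. Cdkn1b at 8.13 (5.95 to 9.49) lay below both without overlap. Bax at 5.90 (4.35 to 7.54) and Sesn2 at 5.41 (4.84 to 5.82) followed, each overlapping the gene before it. In eKO HFSC, Cdkn1a at 31.8 (24.0 to 40.0) stood above Mdm2 at 14.4 (12.6 to 16.7), with no overlap, and Phlda3 was at 401 (368 to 459).

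In control skin the per-length order was led by Phlda3 at 112 (82.6 to 141), Cdkn1a at 100.4 (70.5 to 135) and Ccng1 at 89.3 (48.6 to 122), whose ranges overlapped. Cdkn1b followed at 37.8 (31.3 to 42.9), below all 3. Mdm2 at 21.0 (18.1 to 23.1), Trp53 at 17.3 (14.2 to 19.8), Cdkn2b at 14.3 (12.5 to 16.01) and Sesn2 at 10.1 (7.39 to 12.9) formed a series in which each overlapped the next. Bax at 4.97 (3.27 to 7.17) and Cdkn2a at 1.23 (0.220 to 2.44) were lowest and did not overlap. Cdkn1a thus ranked among the first 3 genes in control skin and below Mdm2 in control HFSC. Its percentile among genes with a read had a median of 98.6 in control skin, 75.2 in control HFSC and 90.4 in eKO HFSC.

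Over the 10 skin libraries, 65 relations were computed among the levels of the 10 genes and with the mean levels of an S phase and mitosis list and a hair matrix and shaft list. None passed Benjamini-Hochberg adjustment (smallest adjusted permutation p 0.421 for Pearson's r and 0.407 for Spearman's rho). The relation with the highest rho was that of Trp53 with Cdkn1a, with r = 0.713 (permutation p 0.0187) and rho = 0.794 (permutation p 0.00865). With the 2 libraries most extreme in Trp53 removed, r was 0.634.

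Other genes of the p53 response changed in both directions in HFSC. Of 31 tested targets in the list of further p53 targets, 7 rose and 3 fell, with a list median of 0.14. These counts, and those of each HFSC list below, stand beside 10.7% of all tested genes called higher and 8.74% called lower. The gene with the largest change was Pmaip1, which encodes the pro-apoptotic BH3 protein Noxa, at 51.9, 75.7 and 89.0 in control and 622, 529 and 534 in eKO libraries (log2 fold change 2.97, limma adjusted p 2.25e-06). Every eKO library was far above every control library. Gadd45a, a growth arrest and DNA damage gene, was at 16.95, 6.31 and 26.0 in control and 79.6, 59.2 and 74.6 in eKO libraries (log2 fold change 2.23, limma adjusted p 0.00933). Sfn, the gene of the epithelial 14-3-3 protein stratifin, which is also high in keratinocytes, was at 10280.00, 10800.00 and 10781 in control and 35645, 27524 and 27509 in eKO libraries (log2 fold change 1.498, limma adjusted p 2.95e-07). The sums of differentiated epidermis and stressed keratinocyte markers given above were higher in the same eKO libraries, and their part in this change was not tested.

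The polo-like kinase gene Plk2 (1.83) and Psrc1 (1.37) rose as well, as did Gtse1 and Aen, where values in parentheses after a gene are log2 fold changes in HFSC. The genes that fell were Eda2r, the gene of an ectodysplasin receptor (-1.17), the metalloreductase gene Steap3 (-1.13) and the DNA damage sensor gene Xpc (-0.74). Zmat3, Perp and Bbc3 were among the targets that did not pass. Of the 15 genes of p53 family members and regulators none rose by limma (1 did by edgeR and by DESeq2) and 2 fell, Trp53bp1, which binds damaged chromatin, by 0.74 on the log2 scale and Mdm4, the partner of Mdm2, by 0.36. With single HFSC libraries left out, 7 to 9 targets passed as higher and 2 as lower, Steap3 and Xpc, while the call of Eda2r was lost in all 6 omissions and under the replicate block. Of the regulators 1 to 3 passed as lower in these omissions, Trp53bp1 in each, and the call of Mdm4 was lost in 5 of the 6, all but that of eKO 1. In skin, no gene of either list was called by limma or edgeR, with 6 of 32 targets and 4 of 15 regulators at an unadjusted p under 0.05, against 14.2% of all genes, whereas DESeq2 called Plk2 and Pmaip1 higher and Trp53bp1 lower.

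**Figure D4:**
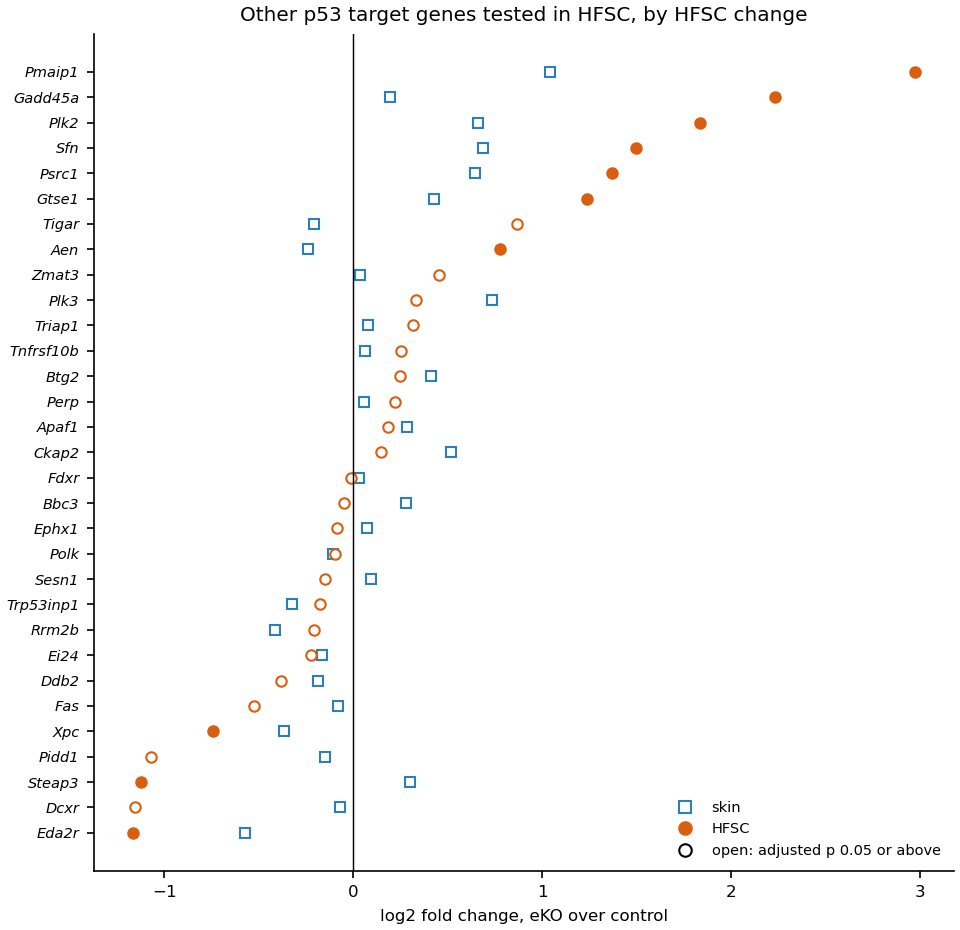
Log2 fold change of eKO over control for the 31 further p53 target genes tested in HFSC, ordered by the HFSC value, with HFSC as orange circles, skin as blue squares and filled symbols where the limma adjusted p is under 0.05. The 10 filled symbols are all HFSC, 7 to the right of 0 and 3 to the left.

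The gene lists around the kinase inhibitors were read in the same way. None of the other 4 inhibitor genes, Cdkn1c, Cdkn2c, Cdkn2d and Cdkn3, passed in HFSC, where their median log2 fold change was -0.29, or in skin, where it was 0.54, by limma, edgeR or DESeq2. At an unadjusted p under 0.05 there were 0 in HFSC, against 32.8% of all genes, and 2 in skin, Cdkn1c and Cdkn2c, against 14.2%. Of 17 G1 cyclin, kinase and pocket protein genes tested in HFSC, 4 rose, where 10.7% of all genes did, among them Ccne1, the cyclin of entry into S phase, at 15.8 ± 5.57 in control and 60.6 ± 32.5 in eKO libraries (SD, n = 3 each) (log2 fold change 1.81), the activator gene E2f2 (0.82) and Cdk6 (0.64). In the same list 2 fell, the pocket protein gene Rbl2 (-0.88) and the D cyclin gene Ccnd3 (-0.39). Of 20 S phase and mitosis genes 4 rose and none fell, beside 10.7% and 8.74% of all genes: the proliferation marker Mki67 was at 326 ± 28.3 in control and 835 ± 47.7 in eKO libraries (SD, n = 3 each) (log2 fold change 1.35), with Ccnb2 (1.49), Plk1 (1.42) and Cdc20 (1.33). Cdkn1a and Mki67 were thus both higher in the same eKO libraries, as was the summed level of hair matrix and shaft markers, whose part in the rise of Mki67 was not tested. With single libraries left out, 2 to 4 S phase and mitosis genes and 1 to 3 G1 genes passed as higher, with 2 of the former without control 1, control 2 or eKO 1 and 1 of the latter without control 2 or control 3.

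Among 15 tested regulators of the Ink4 locus, 4 fell and 1 rose in HFSC, where 8.74% and 10.7% of all tested genes did. The Polycomb genes Ezh2, a histone methyltransferase (-0.90), Cbx2 (-0.91) and Cbx7 (-0.77) fell, as did Id1 (-0.39), while Ets1, an activator of Cdkn2a, rose (1.56). In skin, where Cdkn2a and Cdkn2b were counted at usable depth, none of the 17 tested regulators was called by limma, edgeR or DESeq2, and none had an unadjusted p under 0.05. The count of regulators that fell in HFSC was 1, 1 and 0 without control 1, control 2 and control 3. Of 7 tested genes of senescence-associated secretion in HFSC, Igfbp5 rose (0.50) and Igfbp3 fell (-0.79), and the call of Igfbp5 was lost without control 2, control 3 or eKO 2. In skin none of 12 was called by limma, edgeR or DESeq2, with 3 at an unadjusted p under 0.05, against 14.2% of all genes. Of 8 Bcl-2 family genes tested in HFSC, Bid rose (0.84) and Bmf (-1.13) and Bok (-0.36) fell. None of the 8 passed as lower without control 1, control 2 or control 3. Of 11 genes of the sestrin and growth control list, Ddit4, an inhibitor of mTORC1 induced by stress, rose (0.64), and the AMPK subunit gene Prkaa1 fell (-1.04), a call lost without control 1, control 2, control 3 or eKO 1. None of 9 quiescence factors passed in HFSC by limma, edgeR or DESeq2, with 2 at an unadjusted p under 0.05, against 32.8% of all genes. The 2 were Fgf18 (-1.65) and Nfatc1 (-0.28). In skin none of 9 was called by limma or edgeR, with 1 at an unadjusted p under 0.05, against 14.2% of all genes. This was Fgf18, with a log2 fold change of -1.06 in skin, which DESeq2 called lower.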

How the data were processed

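The 10 genes and the pathway and marker lists were chosen with earlier results of these data known. Per the submitters' processing notes, reads were placed on GRCm39, and the skin table was made with featureCounts and DESeq2; the tools behind the HFSC table are not given in the sources used here. The deposited values are a signal: read counts that the authors divided by 1 size factor per library. Dividing by the smallest step gave whole reads for 100% of values within a tolerance of 0.01. Gene names came from GENCODE M21, which matched 94.1% of skin and 91.4% of HFSC rows. The 2 tables were normalised separately and fitted separately with limma 3.58.1 (R 4.3.3) on log2(value + 1), a scale that understates changes of low genes, for genes that reached 10 in at least 5 skin or 3 HFSC libraries, calling an adjusted p under 0.05 by Benjamini-Hochberg over the table. The difference between tissues was a contrast in 1 fit of all 16 libraries. Alternatives were edgeR 4.0.16 and DESeq2 1.42.0 on recovered reads, other pseudocounts and filters, library size scaling, a replicate block, a hair covariate, omission of each library and omission of 2 skin libraries. The fit was tested on simulated data with 200 changed genes. All 10 genes are named; from each other pathway list, up to 5 called genes with the largest change per tissue are named, with Grk2 and the defining markers of lists that moved; genes that did not pass, and called genes beyond those 5, were named after their values were seen. The read floor of 3 covers counting error in the control libraries only.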

Additional observations from a re-analysis of the deposited data

Results flagged for a closer look

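Among the 10 genes and the pathway lists, 144 genes were tested for a difference between the genotype effect in HFSC and that in skin, and 6 passed the limma threshold over all genes tested, where 5.62% of all 13227 genes passed. Differences are HFSC minus skin on the log2 scale. For Pmaip1 the difference was 1.93 (limma adjusted p 0.00175), from 2.97 in HFSC and 1.04 in skin. For Gadd45a it was 2.04 (limma adjusted p 0.0370), from 2.23 and 0.19. Ets1 differed by 1.31 (limma adjusted p 0.00718) and Plk2 by 1.17 (limma adjusted p 0.0149). Cdkn1a also differed by 1.17 (limma adjusted p 0.0209). Aen differed by 1.01 (limma adjusted p 0.0398), with 0.77 in HFSC and -0.24 in skin. No library of skin stood apart from its group of 5 for any of the 10 genes, over 20 groups checked with Dixon's ratio.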

How the results depend on the processing

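For the 8 genes tested in HFSC and Grk2, 121 of 126 alternative values kept direction and side of the threshold; the other 5 are the lost calls of Mdm2, whose log2 fold change ran from -0.59 to -0.38 over the omissions of single libraries. In skin, for the 10 genes and Grk2, 190 of 209 did, 15 changed sign, all at values near 0 without a call, and 4 gained a call, those of Cdkn2a and Cdkn2b. Of the differences between tissues, for the 8 genes, 175 of 184 did. Cdkn1a ran from 0.99 to 1.36 there and was called except without HFSC control 1 or HFSC eKO 1; Phlda3 gained a call with DESeq2 and without skin control 4 (limma adjusted p 0.0169), and Mdm2 without HFSC eKO 2 (limma adjusted p 0.0412).

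The count of genes called in skin was 62 (38 higher, 24 lower). It was 656 with DESeq2 (332 higher, 324 lower), 37 without a filter, 32 with scaling to library size only and 149 with the hair covariate (96 higher, 53 lower), and 10 to 57 with single libraries left out, lowest without eKO 1. With the 2 Y-low libraries left out limma called 0 genes in skin, with 1790 at an unadjusted p under 0.05; edgeR and DESeq2 were not run on that subset. In HFSC the count of 2673 ran from 1519 (without control 1) to 2620 with single libraries left out. It was also 1541 without control 2 and 1769 without control 3. For the difference between tissues the count of 743 was 1275 with DESeq2, and 484 (without HFSC control 1) to 896 with single libraries left out. The split of that count was 455 higher and 288 lower, and 368 and 393 with scaling to library size only, which moved the median over all genes to -0.10. The causes were not tested.

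The sign changes in skin were as follows. Phlda3 was at 0.015 with library size only, and without the 2 Y-low libraries Trp53 was at -0.0039, Ccng1 at 0.074 and Phlda3 at 0.031. With single libraries left out Trp53 ran from -0.023 to 0.073, Mdm2 from -0.093 to 0.0028, Cdkn1b from -0.028 to 0.20, Ccng1 from -0.49 to 0.011, Phlda3 from -0.14 to 0.088 and Bax from -0.17 to 0.099. The tissue difference of Ccng1 was -0.018 with library size only and -0.20 to 0.30 with single libraries left out.

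With the HFSC replicate number as a replicate block, 2696 genes were called (2502 shared), and Cdkn1a, Phlda3 and Mdm2 kept their calls. Same-numbered libraries did not deviate together (correlations of -0.060, -0.018 and -0.026). With 3 libraries per group such correlations cannot show whether the numbers pair them. No control or eKO sample correlated best with its own number. Precision is limited by 3 libraries per HFSC group and, for Cdkn2a in HFSC, by depth.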
